A study of Caenorhabditis elegans with 2 samples.

Results

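The 4 genes mec-8, mec-14, mec-15 and mec-18 were examined for binding of UNC-86 in Caenorhabditis elegans, out of 19973 protein-coding genes on the nuclear chromosomes. They were chosen by name, as mec (mechanosensory abnormal) genes other than the best known ones for the touch channel, its tubulins and its transcription factor. UNC-86, a POU homeodomain transcription factor, was mapped by chromatin immunoprecipitation and sequencing (ChIP-seq) in 2 biological replicates of 1 group. The labels differ on the antibody: the description of each sample names one against GFP, while the antibody field names unc-86. With an antibody to GFP the signal would be that of the tagged protein, and with one to UNC-86 it could include untagged protein, and the peak lists do not tell which was used. The worms were whole hermaphrodite L1 larvae (the first larval stage) of strain OP476, synchronized by starvation after bleaching and collected 6 hours later. They carried unc-119(tm4063) on chromosome III and the insertion wgIs476, which expresses UNC-86 with a C-terminal tag named both as GFP-FLAG and as eGFP. All values thus come from 1 transgenic line and from all cells of the larva together, so a peak does not say in which cells UNC-86 was bound, and binding in few cells and weak binding in many cannot be told apart. Untagged or mutant worms were not analysed here, and no conditions were compared. On the ce11 (WBcel235) build, mec-8 (WBGene00003172) spans 9441010 to 9444227 of chromosome I, mec-14 (WBGene00003176) 7190189 to 7192992 of chromosome III, mec-15 (WBGene00003177) 10236936 to 10239695 of chromosome II, and mec-18 (WBGene00003179) 4271165 to 4274216 of chromosome X. All 4 lie on the minus strand.

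Touch receptor neurons sense gentle touch along the body. UNC-86 is needed for them to be made and switches on mec-3, which encodes a LIM homeodomain protein, and UNC-86 and MEC-3 then bind together at sites with the sequence AATGCAT in genes of these neurons. MEC-8 is an RNA-binding protein that directs alternative splicing, among others of the transcripts of mec-2, unc-52 and fbn-1. MEC-14 resembles aldo-keto reductases and is needed for touch channel activity. MEC-15 is an F-box protein with WD repeats, a class of protein that hands substrates to ubiquitin ligases. MEC-18 resembles acyl-CoA synthetases and firefly luciferase, and its promoter is in common use to mark touch receptor neurons.

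The sequences that carry the results are those at the 2 strongest member peaks and, beside them, elements of 3 other touch neuron genes that lay under peaks of the authors' final list. mec-2 and mec-12 also had such peaks, but no element under them. The first line is the window of 151 bp around the summit of the mec-14 peak. The other lines are elements with 11 bases on either side, each read 5' to 3' on the strand of its gene. Capitals mark AATGCAT or, where the element lies in the other direction, its reverse complement. The element at mec-18 lies in the 5' untranslated region of C52B9.10, a gene on the opposite strand. Sequences were read from the WBcel235 assembly of RefSeq.
mec-14 summit window, chrIII:7193345-7193495, minus strand: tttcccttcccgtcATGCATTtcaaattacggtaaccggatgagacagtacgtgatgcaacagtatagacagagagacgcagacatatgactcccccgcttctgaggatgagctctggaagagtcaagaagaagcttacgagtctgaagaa
mec-14 element, chrIII:7193464-7193492, minus strand: cccttcccgtcATGCATTtcaaattacgg
mec-18 element, chrX:4274267-4274295, minus strand: gttgcactggtATGCATTtgtgatgcgaa
mec-7 element, chrX:7776801-7776829, minus strand: attcgaatgccATGCATTtgttgatgatg
mec-10 element, chrX:8470312-8470340, minus strand: cccacttacaaATGCATTcgttttgtcga
mec-3 element, chrIV:10461961-10461989, minus strand: gcttcataagaAATGCATctattatcgtc

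The deposited lists rank peaks by a signal value made by the authors. How it was scaled is not stated there, so values are compared only within a list. The optimal list, which passed their test of reproducibility (irreproducible discovery rate, IDR), held 2987 peaks with signals from 66.4 to 1708. The pooled list, called on both replicates together and including background, held 20768 peaks down to a signal of 19.02, and its 2987 strongest were the optimal peaks. The replicates' own relaxed lists held 29587 peaks for replicate 1 and 25172 for replicate 2. These lists give no read counts, so the depth of the libraries is unknown. A gene was counted as having a peak when a summit lay between 1500 bp upstream of its 5' end and its 3' end.

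Of the 4 genes, mec-14 alone had an optimal peak, mec-18 and mec-8 had weaker peaks that both replicates held, and mec-15 had a peak in 1 replicate only. The count of 1 of 4 stands beside 14.4% of all protein-coding genes with an optimal peak by the same rule. In the pooled list 3 of 4 had a peak, against 52.7% of all genes, so most genes passed this rule. In the replicates' lists the counts were 4 of 4 in replicate 1, against 67.3% of all genes, and 3 of 4 in replicate 2, against 58.6%. Both lists together held a peak at 3 of 4, against 48.6% of all genes. These counts of so few genes do not set the members apart from other genes, and the windows of the 4, of 4260 to 4718 bp, were longer than the median window of 3527 bp.

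**Figure D1:**
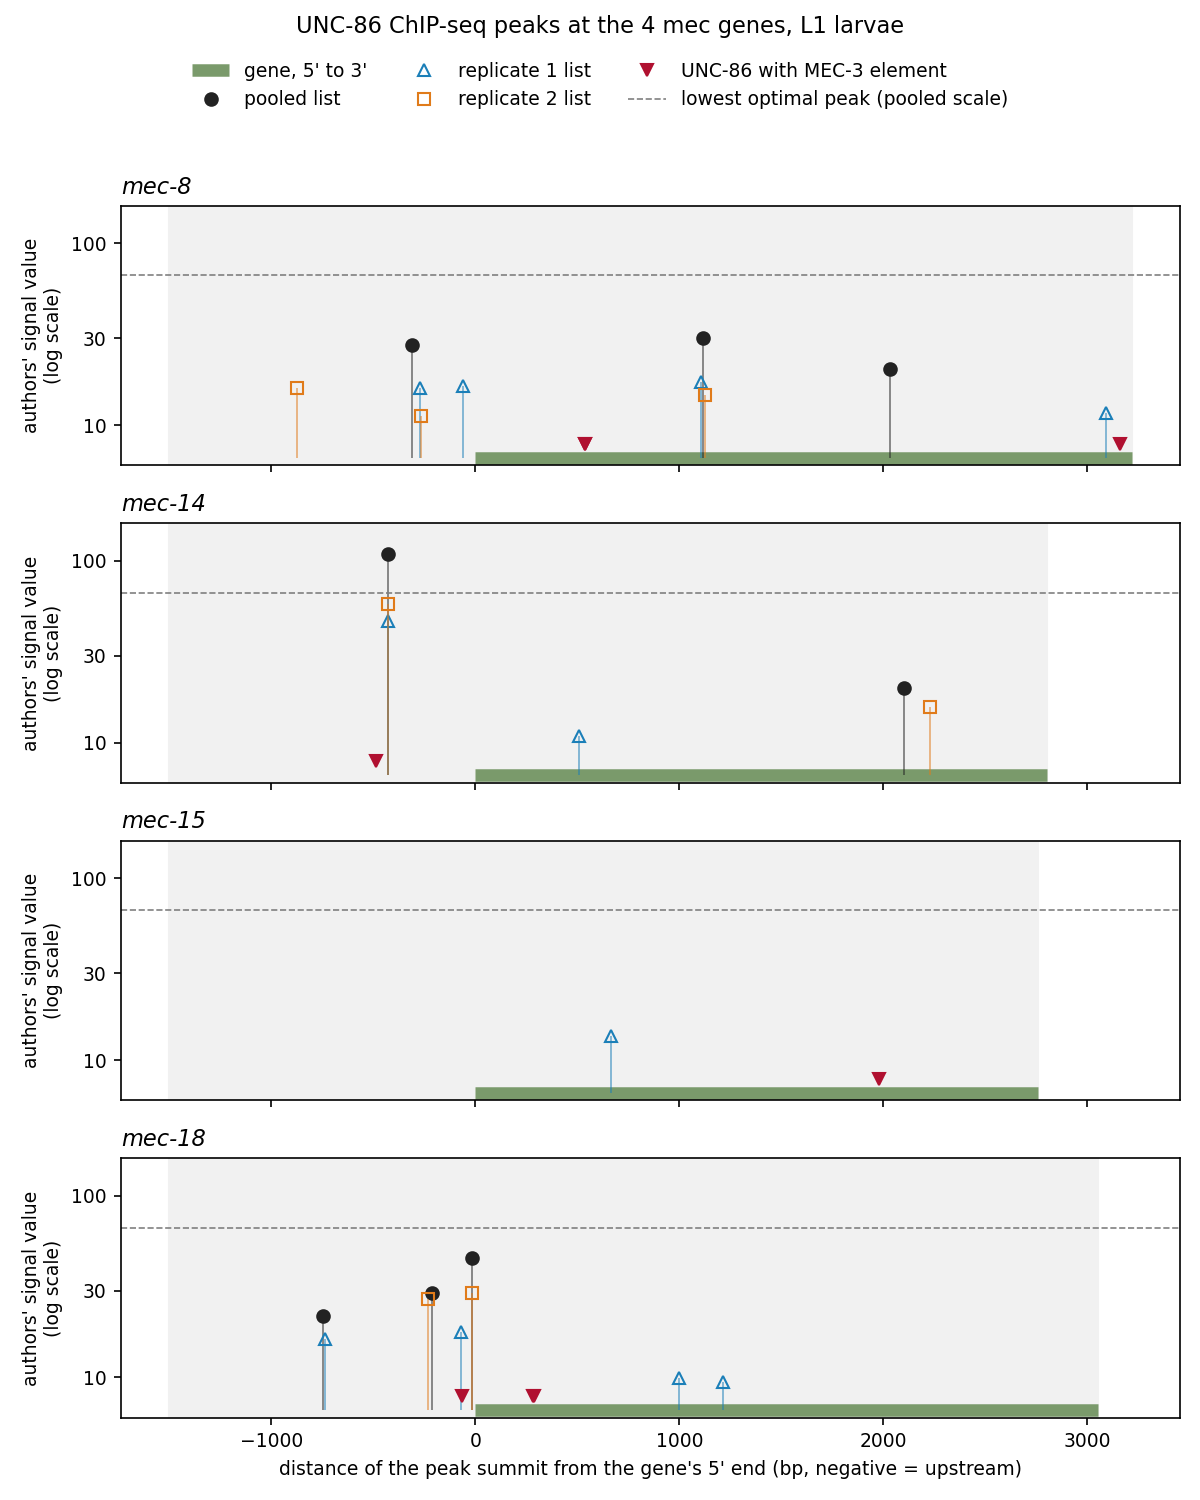
Summits of pooled, replicate 1 and replicate 2 peaks at each gene, by distance from the 5' end (bp) and the authors' signal value (log scale), with the gene as a green bar, the counted window shaded and AATGCAT elements as red triangles. The pooled peak at mec-14, with a signal of 108, is the one above the dashed line at 66.4, the lowest optimal signal.

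mec-14 had a single strong peak upstream of its 5' end, at the same place in both replicates. The optimal peak spanned 7193222 to 7193617, with a signal of 108 and rank 1821 of 2987, below the median optimal signal of 127. Its summit lay 428 bp upstream of the 5' end. The summit of replicate 1 lay 427 bp upstream, with a signal of 46.4 and rank 1840 of 29587, and that of replicate 2 lay 426 bp upstream, with a signal of 57.5 and rank 1913 of 25172. All 3 summits thus fell within 2 bp of each other, while over all optimal peaks the median distance to the nearest summit was 9 bp for replicate 1 and 7 bp for replicate 2. Ranked by their strongest peak, mec-14 stood above 90.1% of all protein-coding genes in the pooled list, 90.2% in replicate 1 and 89.7% in replicate 2. Genes without a peak were counted as lower, here and for the other members. It was the only member among the strongest 2987 peaks of both replicates, which hold 12.7% of all genes.

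The mec-14 summit lay in an exon of F37C12.22, a non-coding RNA gene annotated on the opposite strand, and in the window of no other protein-coding gene. The nearest 5' end of a protein-coding gene was that of mec-14 itself. At the other end of mec-14 a stronger optimal peak, with a signal of 186 and rank 887, lay 254 bp beyond the 3' end and outside the window, 304 bp upstream of rps-21, which encodes a ribosomal protein. Inside mec-14 the lists held only weak peaks. The pooled list had 1 in a coding exon, with a signal of 19.98 and rank 18727 of 20768, replicate 1 had 1 in an intron with a signal of 10.8, and replicate 2 had 1 in a coding exon with a signal of 15.7. The summits of these 3 lay 126 bp or more apart. Those of the pooled list and of replicate 2 also fell in the window of rps-21. Its 5' end was the nearest to them, at 1260 and 1134 bp, so they cannot be assigned to mec-14 alone.

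mec-18 had its strongest peak at its 5' end, below the optimal list. The pooled summit lay 14 bp upstream of the 5' end, in a peak from 4274032 to 4274427 with a signal of 45.2 and rank 4498 of 20768. The weakest optimal peak had a signal of 66.4, and the rank of the mec-18 peak also lay beyond 3637, the length of the optimal list that the authors made on the older ce10 build. The authors' −log10 q value was 1.62 there, against 3.79 at the mec-14 peak. That was the highest value of the pooled list but also the median of the optimal list, so many optimal peaks shared it. Replicate 1 had its summit 70 bp upstream, with a signal of 17.8 and rank 6484 of 29587. Replicate 2 had its summit 15 bp upstream, with a signal of 29.2 and rank 3886 of 25172, and a second one 233 bp upstream with a signal of 26.9 and rank 4271. In both replicates the strongest peak of mec-18 was thus at the 5' end and outside the strongest 2987. Ranked by strongest peak, mec-18 stood above 81% of all genes in the pooled list, 76.1% in replicate 1 and 82.8% in replicate 2.

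Further upstream of mec-18 the pooled list held peaks at 214 bp, with a signal of 29.3, and at 748 bp, with a signal of 21.8. The one at 214 bp was 19 bp from a summit of replicate 2 and 144 bp from the nearest of replicate 1. The one at 748 bp was 10 bp from a summit of replicate 1, with a signal of 16.2, and 515 bp from the nearest of replicate 2. Inside the gene replicate 1 alone had 2 intronic peaks, with signals of 9.91 and 9.41. All 3 pooled peaks also fell in the window of C52B9.10, which overlaps the 5' end of mec-18 on the opposite strand. The one at 748 bp fell in the window of twk-28 too, a potassium channel gene of the TWK family. A peak list cannot assign such a peak to 1 of these genes. The nearest 5' end to all 3 pooled summits was that of mec-18.

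mec-8 had weak peaks upstream and inside the gene. The strongest in the pooled list had its summit in a coding exon, 1115 bp downstream of the 5' end, with a signal of 30.2 and rank 7967 of 20768. Replicate 1 had it with a signal of 17.3 and rank 6930, and replicate 2 with a signal of 14.6 and rank 11055, and both summits lay within 12 bp of the pooled one. A second pooled peak, with a signal of 27.7 and rank 9371, lay 309 bp upstream of the 5' end. Here the summits lay 269 bp upstream in replicate 1, with a signal of 16.0, and 267 bp upstream in replicate 2, with a signal of 11.3. The weakest, in a coding exon 2034 bp downstream, had a signal of 20.3 and rank 18066, and neither replicate had a summit within 75 bp of it.

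Other peaks at mec-8 were held by 1 replicate only. Replicate 1 had summits 60 bp upstream, with a signal of 16.5, and in the 3' untranslated region, with a signal of 11.6. The strongest mec-8 peak of replicate 2, with a signal of 15.9 and rank 9307, lay 873 bp upstream, where replicate 1 had none. The replicates therefore differed in which mec-8 peak ranked first. By strongest peak, mec-8 stood above 73.1% of all genes in the pooled list, 74.8% in replicate 1 and 70.1% in replicate 2. These shares include the genes without a peak. Among genes with a pooled peak the median strongest signal was 30.7, slightly above the 30.2 of mec-8. The nearest optimal peak lay 10128 bp upstream of the gene, with a signal of 105.

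mec-15 had no peak in the pooled list or in replicate 2. Replicate 1 held 1, in a coding exon 667 bp downstream of the 5' end, from 10238840 to 10239215, with a signal of 13.6 and rank 12046 of 29587. The nearest pooled summit lay 1274 bp outside the window. The nearest optimal peak, with a signal of 367 and rank 287, lay 8865 bp upstream of mec-15, and 431 bp from the 5' end of atad-3, which encodes a mitochondrial ATPase. A gene without a peak in these lists had no binding detectable by the authors' procedure, in a sample where touch receptor neurons are a small part of the cells.

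**Figure D2:**
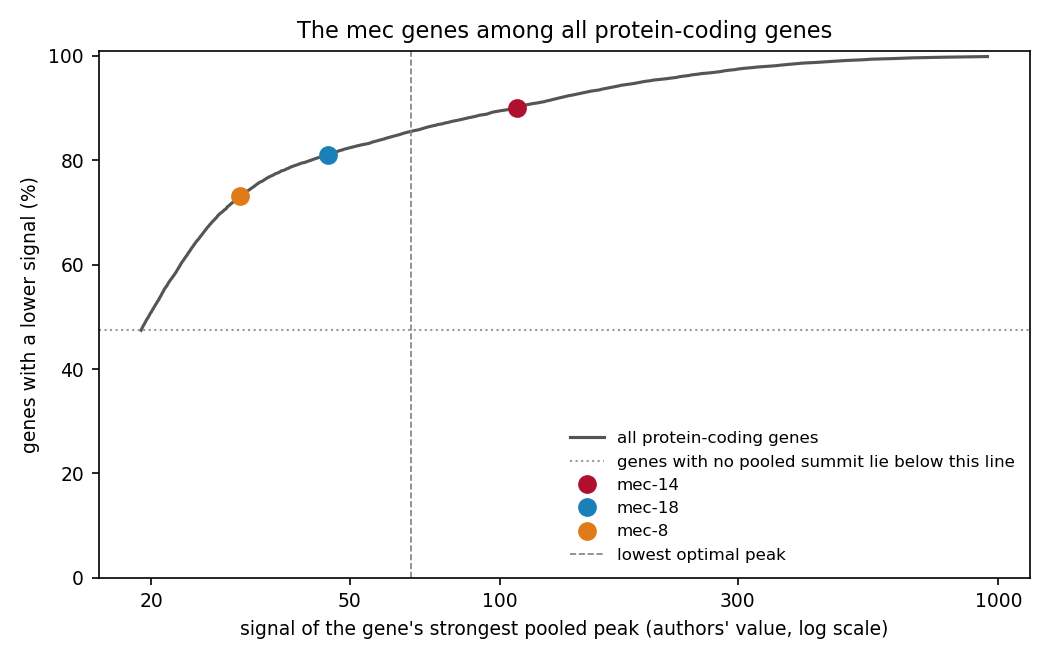
Cumulative share (%) of protein-coding genes by the signal of their strongest pooled peak (log scale), with mec-14, mec-18 and mec-8 marked; mec-15 has no pooled peak and lies among the genes below the dotted line. mec-14 stands at 90.1%, mec-18 at 81% and mec-8 at 73.1%, and mec-14 alone is right of the lowest optimal signal of 66.4.

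**Figure D3:**
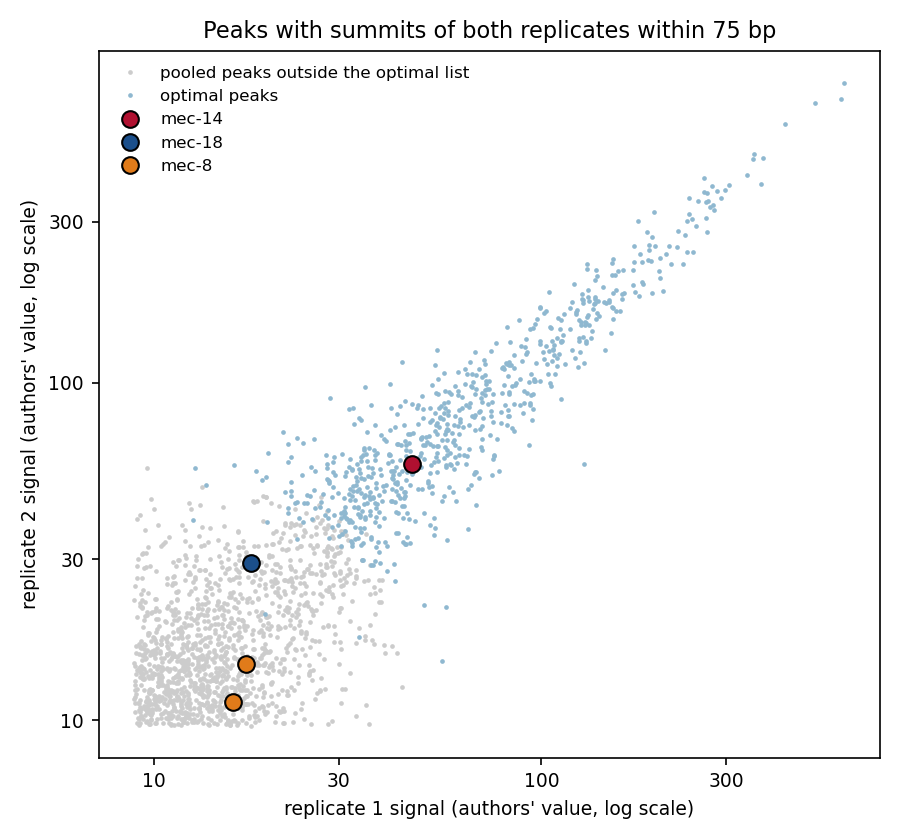
Replicate 1 against replicate 2 signal (both the authors' values, log scale) at pooled peaks with a summit of each replicate within 75 bp, of which 1 in 4 is drawn, and at the members' peaks that qualify. The mec-14 peak (46.4 and 57.5) lies among the optimal peaks, and the mec-18 peak (17.8 and 29.2) and the 2 mec-8 peaks lie among those outside the optimal list.

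The AATGCAT element lay close to the strongest peak of both mec-14 and mec-18, and to none of the pooled peaks of mec-8. At mec-14 the element, shown above, lay at 7193475 to 7193481, 486 bp upstream of the 5' end. It was 58 bp from the optimal summit, 59 bp from that of replicate 1 and 60 bp from that of replicate 2. At mec-18 it lay at 4274278 to 4274284, 65 bp upstream of the 5' end, 51 bp from the pooled summit, 5 bp from that of replicate 1 and 50 bp from that of replicate 2. Of the 8 pooled member peaks 2 had AATGCAT within 75 bp of the summit on either strand, against 2.56% of all pooled peaks, and the 1 optimal member peak had it, against 3.05% of all optimal peaks. AATGCAT became known from genes of these neurons, so finding it beside them is a description and no independent support.

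All 4 windows held an AATGCAT somewhere, as did 46.7% of those of all protein-coding genes, but it lay upstream of the gene only at mec-14 and mec-18. That made 2 of 4, against 20.4% of all genes within 1500 bp. At mec-8 it lay in an intron 537 bp downstream of the 5' end, 577 bp or more from the nearest pooled summit, and in the 3' untranslated region, where the weak summit of replicate 1 was 68 bp away. At mec-15 it lay in an intron, 1978 bp downstream of the 5' end and 1311 bp from the replicate 1 summit. mec-18 had a second element in an intron 285 bp downstream, which no peak of any list covered. An element under an optimal peak was found at 1 of the 4 genes, against 1.02% of all genes, and under a pooled peak at 2 of 4, against 5.62%. The whole genome held 19182 matches to AATGCAT, an AATGCATT counting once on each strand, of which 1.43% lay under an optimal and 8.54% under a pooled peak.

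Of the other letters searched for on both strands, only GAGAGA and the core of the element were found at pooled peaks of the members. GAGAGA, the commonest of the letters searched for at optimal peaks, was within 75 bp of the summit at 2 of 8 pooled member peaks, the strong one of mec-14 and the one 309 bp upstream of mec-8, against 15.8% of pooled peaks and 36.3% of optimal peaks. The octamer ATGCAAAT, the homeodomain core TAATTA, the E box CACGTG and the reversed control TACGTAA were at none of the 8. Among all pooled peaks they were at 1.27%, 6.54%, 3.81% and 0.539%. In the replicates' lists TAATTA was at 0 of 11 member peaks of replicate 1 and 1 of 7 of replicate 2, the one 873 bp upstream of mec-8. Its share over all peaks of the replicates' lists was not counted, so these counts have no background beside them. ATGCAT, the core of the element, was found only where AATGCAT was. G and C made up 47% of the bases at the mec-14 summit window and 45% at that of mec-18, against a median of 45% over optimal peaks and 40.4% over pooled peaks.

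**Figure D4:**
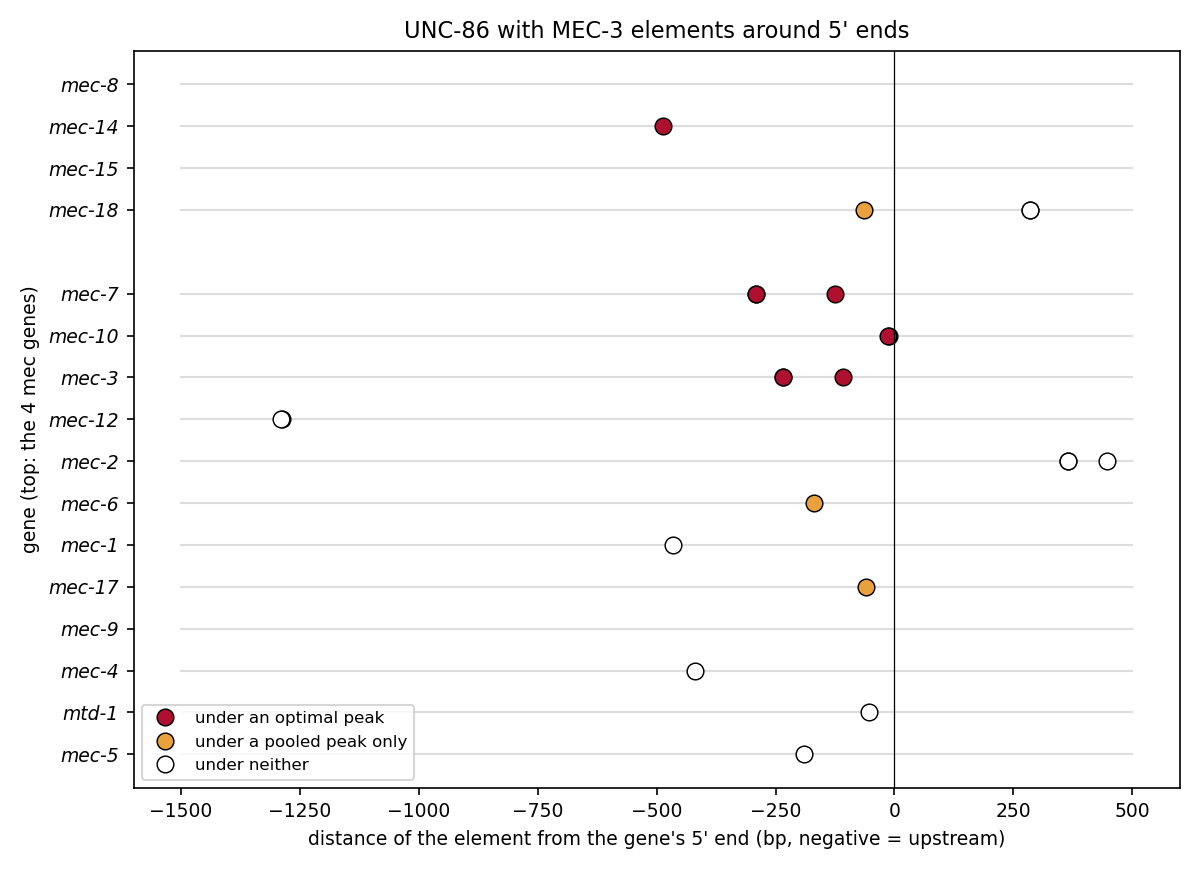
Positions of AATGCAT elements from 1500 bp upstream to 500 bp downstream of the 5' ends (distance in bp) of the 4 members (top) and 12 other touch neuron genes, coloured by whether an optimal peak, a pooled peak or neither covers them. Among the members the mec-14 element, 486 bp upstream, is under an optimal peak and the mec-18 element, 65 bp upstream, under a pooled one.

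Among the other genes of touch receptor neurons, 5 of 12 had an optimal peak in the same window, so mec-14 was 1 of 6 in the 16 genes together, beside the 14.4% of all genes. The windows differed in length, and a longer one has more room for a peak. Those with an optimal peak had 24577 bp at mec-2, 9161 at mec-12, 6055 at mec-10, 4552 at mec-3 and 3334 at mec-7. The median over all genes was 3527 bp. Ordered by pooled signal, mec-14 with 108 came after mec-7, a beta-tubulin gene, with 161, mec-10, a degenerin channel subunit gene, with 130, and mec-3 with 114. It came before mec-12, an alpha-tubulin gene, with 78.5, and mec-2, a stomatin-like gene of the channel complex, with 72.8. mec-18 with 45.2 stood between mec-6, a paraoxonase-like gene of the channel complex, with 65.1, and mec-1, an extracellular matrix gene, with 42.8. mec-8 with 30.2 stood between mec-4, the main channel subunit gene, with 33.6 and mtd-1 with 23.9. mec-15 and mec-5, a collagen gene, had no pooled peak.

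In both replicates mec-14 stayed below mec-3 and above mec-12, by differing margins, while mec-18 and mec-1 changed places. In replicate 1 mec-3 had a signal of 55.8 and mec-14 46.4, and in replicate 2 mec-3 had 59.2 and mec-14 57.5. mec-12 had 24.8 in replicate 1, below the 46.4 of mec-14 there, and 54.4 in replicate 2, close to its 57.5. mec-18, with 17.8 in replicate 1 and 29.2 in replicate 2, was below mec-1 (22.5) in replicate 1 and above it (20.9) in replicate 2. Both replicates had mec-14, mec-3, mec-7 and mec-10 among their strongest 2987 peaks. The optimal peaks of mec-2 and mec-12 lay inside these genes, 7927 and 3113 bp downstream of the 5' end, and were in the strongest 2987 of replicate 2 only. The peaks of mec-14, mec-3, mec-7 and mec-10 all lay upstream, at 428, 129, 119 and 17 bp.

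**Figure D5:**
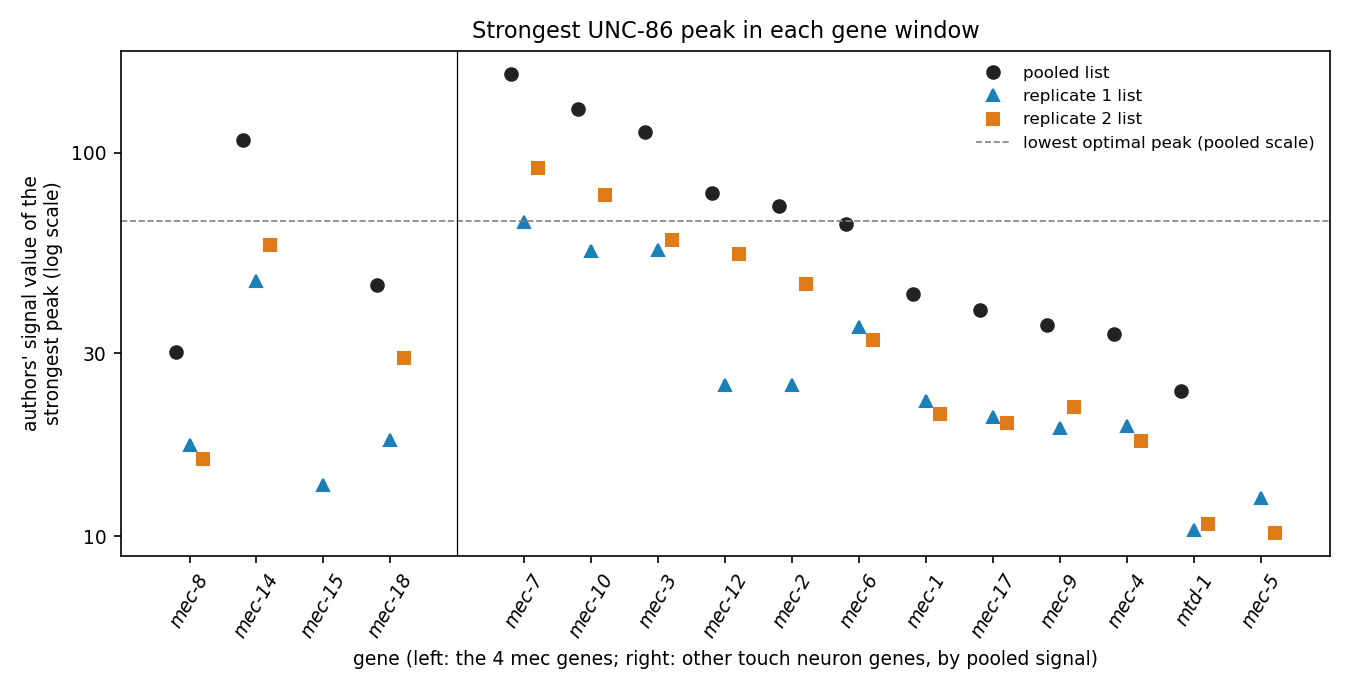
Signal (authors' value, log scale) of the strongest peak in each gene window in the pooled, replicate 1 and replicate 2 lists, for the 4 members (left) and 12 other touch neuron genes (right, by pooled signal). By pooled signal mec-14 is the member above the dashed line at 66.4, the lowest optimal signal, with 5 of the 12 others. The line is on the pooled scale and does not apply to the replicates' values. mec-15 has a replicate 1 value only.

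The element lay near the summit at each upstream optimal peak of these genes. For the elements shown above, the distance to the optimal summit was 58 bp at mec-14, against 21 bp at mec-3, 7 bp at mec-7 and 5 bp at mec-10. The same optimal peaks covered a further site at mec-3, 105 bp from the summit, and at mec-7, 172 bp from it. At mec-12 the nearest element, 1289 bp upstream, was under no peak and lay 277 bp from an optimal summit outside the window. At mec-2 the element nearest to its optimal summit lay 3837 bp from it. Of the 12 other genes 3 had an element under an optimal peak and 6 under a pooled peak, against 1.02% and 5.62% of all genes. Among those with no optimal peak, mec-17, an alpha-tubulin acetyltransferase gene, resembled mec-18: its pooled peak, with a signal of 38.9, had its summit 1 bp from an element 59 bp upstream of the 5' end. mec-4, mec-5, mec-1 and mtd-1 had an element upstream that no pooled peak covered.

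Among genes tied to the members by role, 1 of 6 had an optimal peak, a share near the 14.4% of all genes. Of the transcripts spliced with MEC-8, mec-2 had the optimal peak given above, while unc-52, which encodes the basement membrane protein perlecan, and fbn-1, a fibrillin-related gene, had none. The strongest pooled signal of mec-8 was 30.2, beside 30.9 at unc-52 and 19.7 at fbn-1. The windows were unlike: 4718 bp with 3 pooled peaks at mec-8, 38636 bp with 11 at unc-52 and 17193 bp with 2 at fbn-1. A longer window has more room for a strong peak, so these signals are not matched. mec-15 had no pooled peak, and of the core genes of SCF ubiquitin ligases none had an optimal peak. Their strongest pooled signals were 23.4 at cul-1, 45.1 at rbx-1 and 35.3 at skr-1, in windows of 5393, 2337 and 2592 bp.

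The genes most like each member were found by the distance between log2 signals of the strongest peaks over the pooled and both replicate lists, among 8581 protein-coding genes with a peak in all 3. The pooled list shares its reads with the replicates, so these are 2 independent libraries. Closest to mec-14 were gab-1, a gene for a GABA receptor subunit, with a pooled signal of 110 and a distance of 0.0295, and K02E10.7, with 106 and 0.0392. Closest to mec-18 was C52B9.10, at a distance of 0 because its window holds the same peaks, followed by nhr-50, a nuclear hormone receptor gene, with 46.3 and 0.0516. For mec-8 they were cdh-12, a cadherin gene, with 29.8 and 0.0436, and W04E12.5, with 31.2 and 0.0618. Within a distance of 0.1 lay 13 genes for mec-14, 5 for mec-18 and 19 for mec-8.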

How the data were processed

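The authors deposited peak lists on ce11: 1 per replicate from its alignment and a control, 1 from both alignments pooled, and the optimal list made from these by IDR, per the listing deposited beside the samples. The signal value of each peak and its −log10 q value are the authors' own. No source used here names the aligner, the peak caller, the scaling or the IDR cutoff. Lists on ce10 served only for the length of the optimal list (3637 peaks).

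Summits were set against Ensembl release 115 genes on WBcel235, the assembly of ce11, with Python 3.11.15, numpy 2.4.6, pandas 2.3.3 and matplotlib 3.10.9. Ranks are by signal within a list. The window and sequence searches were checked on simulated peaks. Letters were searched on both strands within 75 bp of summits, and overlapping matches were all counted. With 2 replicates of 1 group no test was made, and counts are given beside those of all protein-coding genes. The members and gene lists were chosen with earlier results of these data known. The text names the members, genes that share or neighbour their peaks, genes of the 2 lists, and the 2 genes most like each member. Alternatives changed the window, the overlap rule, the list and the replicate used.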

Additional observations from a re-analysis of the deposited data

How the results depend on the processing

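Of 44 alternative values, 35 stayed within 1.5 times the reported count and 9 did not; 2 of the 44 (a single replicate's list in place of the pooled one, giving 3 and 4 members) were chosen after seeing the data. With optimal peaks above the median signal only, 0 members, 2 of the other touch neuron genes and 0 of the genes tied by role had a peak. Of all protein-coding genes 8.39% had one under that setting, so counts this low in such short lists are no result about the genes. From 1500 bp upstream to 500 bp downstream of the 5' end, 3 other touch neuron genes and 0 genes tied by role had one, beside 12.3% of all genes. Among the strongest 2987 peaks of both replicates 1 member had a peak, mec-14, in place of 3 in the whole lists. Within 30 bp of the summit 0 optimal member peaks had AATGCAT, and in the pooled list 2 of 8 had it within 75 bp. Leaving out a replicate, the genes tied by role with a peak ranged from 0 (without replicate 2, where mec-2 was missing) to 1, and the other touch neuron genes from 4 (without replicate 2, where mec-2 and mec-12 were missing and mec-6 was added) to 5. The share of all genes was 14.1% without replicate 2 and 14.5% without replicate 1. In the other 8 settings tried, which include a longer list and windows from 1000 to 2500 bp upstream, mec-14 alone of the members had an optimal or strongest peak. With 2 replicates, unknown depth and whole larvae, a missing peak sets no bound on binding in touch receptor neurons.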

Other observations

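Beyond the 7 letters of the element, the sequence next to it was shared by pairs of these genes, compared after the values were seen. From the element on, mec-14 and mec-5 shared the 13 bases ATGCATTTCAAAT, which occur 30 times in the genome. The copy at mec-14 lay under its optimal peak, and that at mec-5, 190 bp upstream, lay under no pooled peak. In all, 2 of the 30 copies lay under an optimal and 4 under a pooled peak. mec-18, mec-7 and mec-10, all on chromosome X, shared ATGCATTTGT on one strand or the other, of which 8.13% of 443 copies lay under a pooled peak, against 8.54% for AATGCAT as a whole. Genes on different chromosomes shared longer runs, of 11 bases: mec-2 (X) with mec-3 (IV), and mec-9 (V) with mec-17 (IV). Of their copies in the genome, 5.17% of 174 and 9.4% of 468 lay under a pooled peak.

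mec-19, which is in no list used here, had no optimal peak and a pooled signal of 23.5.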
